A study of Danio rerio with 6 samples.

Results

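The cholesterol 25-hydroxylase family of zebrafish was followed here in tails of sirt6 mutant larvae and wild-type larvae. Members were the genes whose symbol in the deposited table is ch25h, ch25hl1.1, ch25hl1.2, ch25hl2 or ch25hl3. These 5 symbols gave 6 of the 38157 genes listed, because ch25hl3 stands in 2 entries. The members were picked with the difference between genotypes already known for these libraries, so their levels and fold changes by genotype are given as a description, with the standard error (SE) of the fit but no test.

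The libraries were made from poly-A RNA of tails with their blood-forming tissue, taken at 3 days post fertilisation, with 3 libraries of sirt6 mutant larvae and 3 of wild type (WT). The mutant line came from CRISPR/Cas9 editing of sirt6, which encodes a NAD-dependent deacylase of histones and other proteins. The larvae were sorted by genotyping. Which lesion the line carries, whether mutants were homozygous, and how many larvae went into a library is not stated in the labels, which also name no treatment. Nothing there says that libraries of a genotype came from separate pools of larvae, so p-values measure the spread between these libraries, which may be technical.

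Cholesterol 25-hydroxylase is an enzyme of the endoplasmic reticulum that adds a hydroxyl group to the side chain of cholesterol. It belongs to the fatty acid hydroxylase superfamily of membrane enzymes, in which histidine clusters hold iron, and not to the cytochrome P450 enzymes that make most other oxysterols. In mammals its product, 25-hydroxycholesterol, restrains sterol synthesis by holding SREBP2 in the endoplasmic reticulum through INSIG proteins, activates liver X receptors, and is processed by CYP7B1 and HSD3B7 into a ligand of the receptor GPR183, which guides immune cells. In mammalian macrophages the gene is induced by interferon and by bacterial products. Teleosts carry several paralogues, and the roles of the fish copies other than ch25h are less well known.

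Between 12438359 and 14655293 reads per library fell in genes. Levels are in FPKM, that is, fragments per kilobase of gene length, scaled to a size per library. That size was 0.952 to 1.06 times the reads in genes, so it was not their plain total. Reads per gene were recovered from FPKM and gene length. Genotype was not the only split among libraries. WT libraries 2 and 3, and mutant libraries 1 and 3, formed close pairs, whose reads differed by a chi-square of at most 3.54 times its degrees of freedom, against 16 to 40.4 times for the other pairs. Values without mutant library 2 and WT library 1 are therefore given where they matter. The targeted gene sirt6 had 3.52, 3.39 and 3.04 FPKM in mutant libraries, against 5.85, 3.26 and 2.44 FPKM in WT libraries (two-sided exact permutation test, p = 0.9, where 0.1 is the smallest p that 3 against 3 libraries allow). Its transcript level is no check of the genotype labels. Muscle and skin markers of the tail were abundant, with actc1b at 11470 to 15160 FPKM and krt4 at 2709 to 3618 FPKM over all libraries. Genes of organs outside the tail had reads too. The rod opsin gene rho was at 778 to 910 FPKM in mutant libraries, against 285 to 568 FPKM in WT libraries. The liver gene fabp10a was at 189 to 278 FPKM against 155 to 491 FPKM. The source of these transcripts was not tested.

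The family held 2 genes whose libraries separated by genotype in opposite directions. The paralogue ch25hl2 was higher in mutants and ch25h was lower, while the 2 genes of the ch25hl1 pair were listed at 0 in every library and the 2 entries of ch25hl3 were lower on average in mutants. Over all genes tested, 0% passed limma as higher and 0% as lower in mutants at an adjusted p of 0.05 (23855 genes, of which 5.73%, or 1368, had an unadjusted p under 0.05).

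The gene ch25hl2 encodes cholesterol 25-hydroxylase-like protein 2 (ENSDARG00000038728, GRCz11 chromosome 21, 7900107 to 7901424, plus strand). It had 2.68, 3.01 and 2.92 FPKM in mutant libraries 1, 2 and 3, against 0.922, 0.659 and 0.890 FPKM in WT libraries 1, 2 and 3. Every mutant library lay above every WT library, and the gap between the genotypes was wider than the range within either. Of all genes tested, 5.16% were without overlap in this direction, and 5.4% in the other. The means were 2.87 ± 0.169 FPKM in mutants and 0.824 ± 0.144 FPKM in WT (SD, n = 3 each). The log2 fold change on log2(FPKM + 0.5) was 1.35 with an SE of 0.18. Of the genes tested, 0.394% differed by this much or more in either direction. The gene was chosen on this contrast, so nothing follows from this share or from the lack of overlap.

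Few reads stand behind these levels. The reads of ch25hl2 numbered 47, 54 and 57 in mutant libraries and 17, 12 and 15 in WT libraries. Exact 95% Poisson intervals, which cover counting error only, ran from 34.5 to 62.5 reads in mutant library 1, the lowest of the mutants. They ran from 9.90 to 27.2 reads in WT library 1, the highest of the WT libraries. The intervals of the genotypes thus did not meet. Counting alone at these depths gives an SD of 0.397 FPKM in mutants and 0.215 FPKM in WT, which exceeds the observed SDs of 0.169 and 0.144 FPKM. The 3 libraries of each genotype thus lay closer together than counting error alone, so the SD over 3 libraries is not the whole error of ch25hl2. Summed over libraries and scaled by library size, the reads gave a ratio of 3.49 for mutant over WT, and 2.49 to 5.0 bound it for counting error only.

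The gene ch25h is the fish copy that carries the plain name of the mammalian enzyme (ENSDARG00000045190, chromosome 12, 17042754 to 17043874, plus strand). Its level was 0.268, 0.458 and 0.241 FPKM in mutant libraries 1, 2 and 3, against 1.403, 1.49 and 2.30 FPKM in WT libraries 1, 2 and 3. Again the genotypes did not overlap, here with the mutants below. The means were 0.323 ± 0.118 FPKM in mutants and 1.73 ± 0.498 FPKM in WT (SD, n = 3 each). The log2 fold change was -1.43 with an SE of 0.25, and 0.314% of the genes tested had an absolute value at least as large. This gene too was chosen on the contrast, so nothing follows from that share.

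In mutant libraries ch25h rested on 4, 7 and 4 reads, against 22, 23 and 33 reads in WT libraries. The exact Poisson interval of mutant library 2 reached up to 0.944 FPKM and that of WT library 1 down to 0.879 FPKM, so these intervals overlapped. The summed reads, 15 in mutants and 78 in WT, gave a ratio of 0.187 for mutant over WT, with a counting interval of 0.1 to 0.328. The counting SD in mutants, 0.144 FPKM, again exceeded the observed SD of 0.118 FPKM. In WT the observed SD of 0.498 FPKM exceeded the counting SD of 0.337 FPKM, because WT library 3 lay above the other WT libraries.

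**Figure D1:**
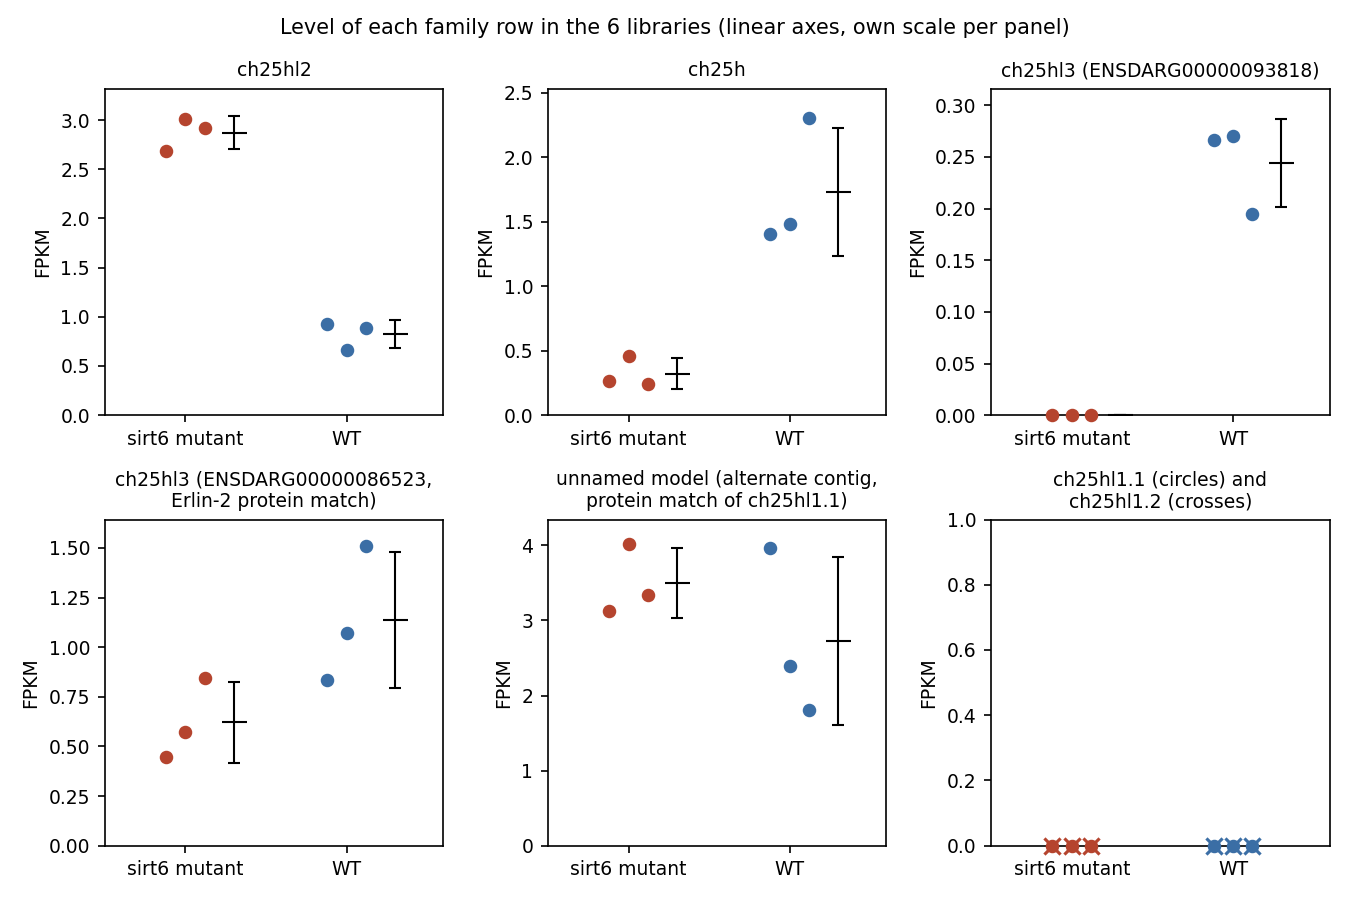
Level in FPKM (vertical axis, linear, own scale per panel) of each family entry and of the alternate contig model of ch25hl1.1 in 3 sirt6 mutant and 3 WT libraries; points are libraries, and the black bar and whiskers are mean and SD. The ch25hl2 points of mutants lie between 2.68 and 3.01 FPKM, above those of WT, the ch25h points of mutants lie below 0.459 FPKM, below those of WT, and both ch25hl1 genes lie at 0.

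**Figure D2:**
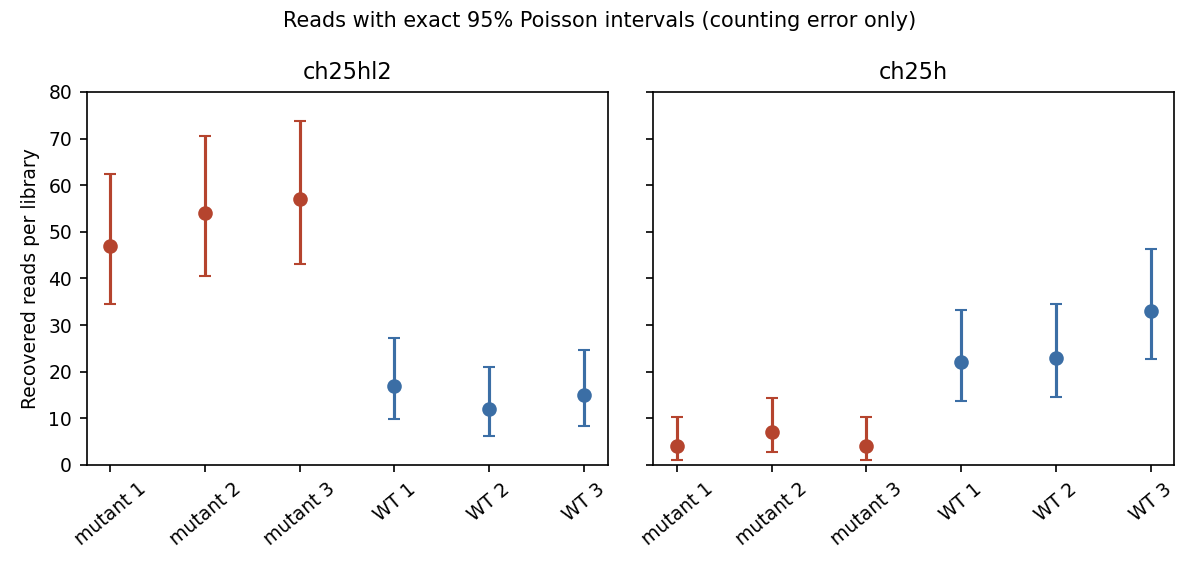
Reads of ch25hl2 and ch25h (vertical axis) in each of the 6 libraries, with exact 95% Poisson intervals for counting error only. The mutant intervals of ch25hl2 start at 34.5 reads, above the end of the highest WT interval at 27.2, while the ch25h intervals of mutant library 2 and WT library 1 overlap, reaching up to 14.4 reads and down to 13.8 reads.

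The pair was also set side by side within each library, where library scaling cancels but for the added 0.5. On the log2(FPKM + 0.5) scale ch25hl2 minus ch25h was 2.05, 1.87 and 2.21 in mutant libraries, against -0.42, -0.78 and -1.01 in WT libraries. The more abundant of the 2 paralogues was ch25hl2 in each mutant library and ch25h in each WT library. On the linear scale ch25hl2 stood at 9.99, 6.56 and 12.1 times ch25h in mutant libraries, against 0.657, 0.444 and 0.387 times in WT libraries. The change of this log2 difference between genotypes was 2.78, and it was 3.02 without mutant library 2 and WT library 1. The summed level of both genes was 3.19 ± 0.259 FPKM in mutants and 2.55 ± 0.561 FPKM in WT (SD, n = 3 each), with WT library 3, at 3.19 FPKM, inside the mutant range of 2.95 to 3.47 FPKM. The sum of both thus overlapped between genotypes while each gene alone did not. The 2 genes were chosen as paralogues that move in opposite directions. A large change of their difference and a smaller one of their sum follow from that choice and are no further result.

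The fold changes kept their signs under each alternative that was run. Since neither gene overlapped between genotypes, other pseudocounts and left-out libraries could not have changed a sign. The other filters, median-of-ratios rescaling, the replicate block and the fit without variance trend returned the same fold changes by construction. The log2 fold change of ch25hl2 ranged from 1.09 to 1.78 over 16 alternatives and that of ch25h from -2.32 to -1.03. The widest values came from limma voom on the recovered reads, at 1.78 and -2.32, and the narrowest from a pseudocount of 1. Leaving out each library in turn moved ch25hl2 between 1.26 and 1.41 and ch25h between -1.54 and -1.25.

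**Figure D3:**
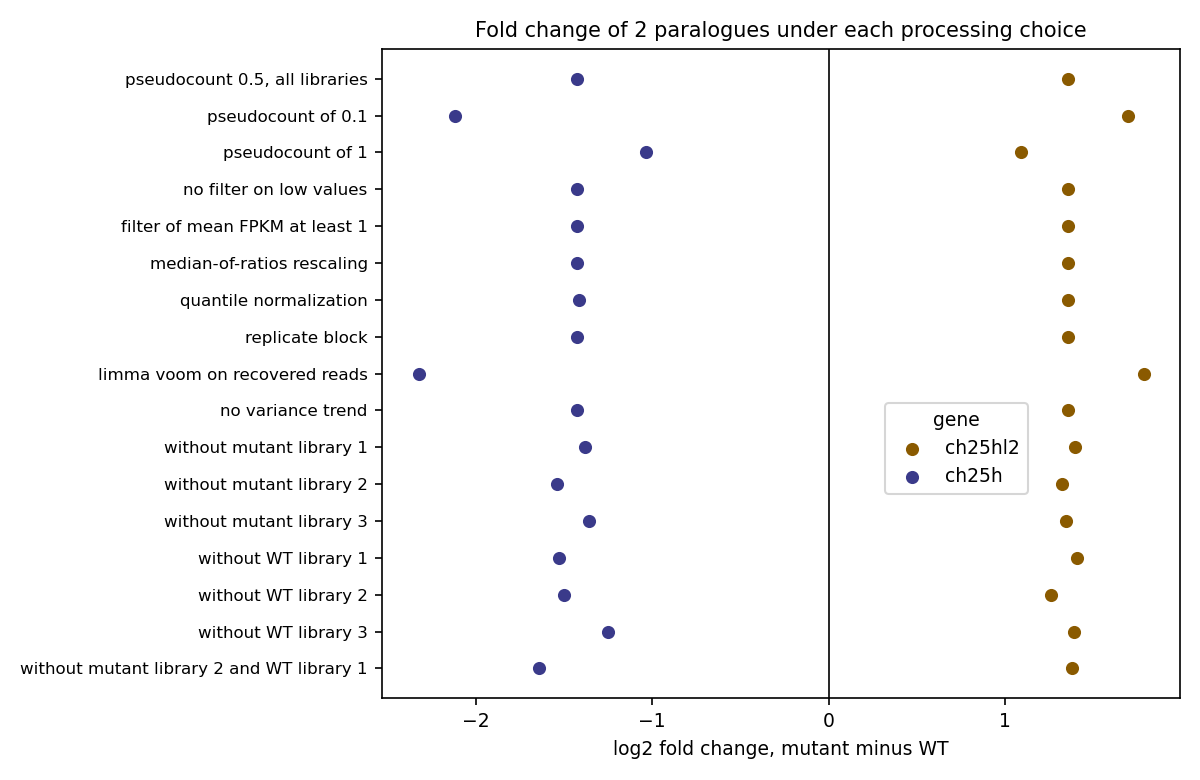
Log2 fold change, mutant minus WT (horizontal axis), of ch25hl2 and ch25h for the values as reported (top) and each alternative processing choice (rows). All ch25hl2 points lie between 1.09 and 1.78 and all ch25h points between -2.32 and -1.03.

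The symbol ch25hl3 covers 2 overlapping entries on the plus strand of chromosome 5, and they are not equivalent. The shorter entry (ENSDARG00000093818, 35502290 to 35506630, gene length 804 bases) carries the fatty acid hydroxylase domain and a protein match named cholesterol 25-hydroxylase. It was listed at 0 in the 3 mutant libraries, against 0.267, 0.270 and 0.195 FPKM in WT libraries, which are 3, 3 and 2 reads. With 8 reads in WT and 0 in mutants, set against a floor of 3 reads over the group, its level was at least 2.74-fold lower in mutants, with the WT reads taken as exact. This bound was 1.77-fold without mutant library 3, and 1.76-fold without mutant library 2 and WT library 1. A count of 0 allows up to 0.252 to 0.292 FPKM per library, which takes in the WT levels themselves, so a difference in any single library is not detectable at this depth.

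The longer ch25hl3 entry (ENSDARG00000086523, 35463688 to 35508088, gene length 5752 bases) spans the whole of the shorter one, all 4341 bases of it. Its protein match is Erlin-2, a protein of the endoplasmic reticulum membrane that takes part in the breakdown of other proteins there, and it carries no hydroxylase domain in the table. A names table for the same identifiers calls this entry ERLIN2. A separate entry named erlin2 (35458346 to 35478425) overlaps it in position, with 1 read in mutant library 2 and 0 in every other library. The level of the longer ch25hl3 entry was 0.444, 0.574 and 0.846 FPKM in mutant libraries, against 0.832, 1.07 and 1.51 FPKM in WT libraries. Mutant library 3 lay just above WT library 1, so the genotypes overlapped. The log2 fold change was -0.54 with an SE of 0.25, on 34 to 72 reads per mutant library and 67 to 111 reads per WT library. Without mutant library 2 and WT library 1 the genotypes did not overlap, and the log2 fold change was -0.66. In that setting genotype and close pair of libraries cannot be told apart. Reads in the shared stretch can be split between the entries or dropped, depending on counting settings that no label records, and both levels are uncertain for that reason.

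The ch25hl1 pair lies on chromosome 18, with ch25hl1.1 at 26853891 to 26854959 on the minus strand (ENSDARG00000039381) and ch25hl1.2 at 26895994 to 26896826 on the plus strand (ENSDARG00000068138). Both had 0 reads in each of the 6 libraries, which allows up to 0.190 to 0.219 FPKM per library for ch25hl1.1 and 0.243 to 0.282 FPKM for ch25hl1.2. For ch25hl1.1 this 0 is not the whole account. An unnamed gene model on an alternate contig of chromosome 18 (26853693 to 26858984 in the contig's numbering, minus strand) has the same protein match as ch25hl1.1 (Q567X1) and covers the same interval on the same strand. Alternate contigs hold a second version of a genome region. This model was singled out after its values were seen.

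The alternate contig model of ch25hl1.1 had 3.13, 4.02 and 3.33 FPKM in mutant libraries, against 3.97, 2.40 and 1.81 FPKM in WT libraries. It rested on 54, 71 and 64 reads in mutant libraries and 72, 43 and 30 reads in WT libraries. The genotypes overlapped, because WT library 1 lay near mutant library 2 at the top of the range. With both of these left out, mutants, at 3.13 and 3.33 FPKM, lay above WT, at 2.40 and 1.81 FPKM. In that setting genotype and close pair of libraries cannot be told apart. Over all libraries the log2 fold change of the model was 0.36 (95% interval -0.23 to 0.95). Taken by reads, this model held 334 reads over the 6 libraries, more than ch25hl2 with 158 in mutants and 44 in WT.

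Around ch25hl1.1 the reads were placed in more than 1 way. The alternate contig carries 7 models, and each of them had reads. The models carry no gene type, and how they were made is not recorded. If they were built from these reads, their having reads follows from that. Of the 8 genes of chromosome 18 within the range of these models, all protein-coding, 6 had 0 reads in all libraries. Elsewhere on chromosome 18 this held for 19% of 1045 genes, which are of any gene type, so the sets are not alike. Of these 6 genes, 4 overlap a model on the same strand, and ch25hl1.2 and pstpip1a do not. The tetraspanin gene tspan3a had 7 reads on the chromosome and its counterpart on the contig had 1308, and the calcium-binding protein gene rcn2 had 0 reads, against 475 for its counterpart. The kinase gene pik3c2a differed from these, with 1433 reads on the chromosome and 1707 on an overlapping model with the same protein match. A further model that overlaps it, with 269 reads, has another protein match. For ch25hl1.2 the contig holds no overlapping model, and no other entry carries its protein match, so no counterpart is listed for it. The lack of a model does not show that its transcripts were absent. How the reads came to lie on the contig was not tested.

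**Figure D4:**
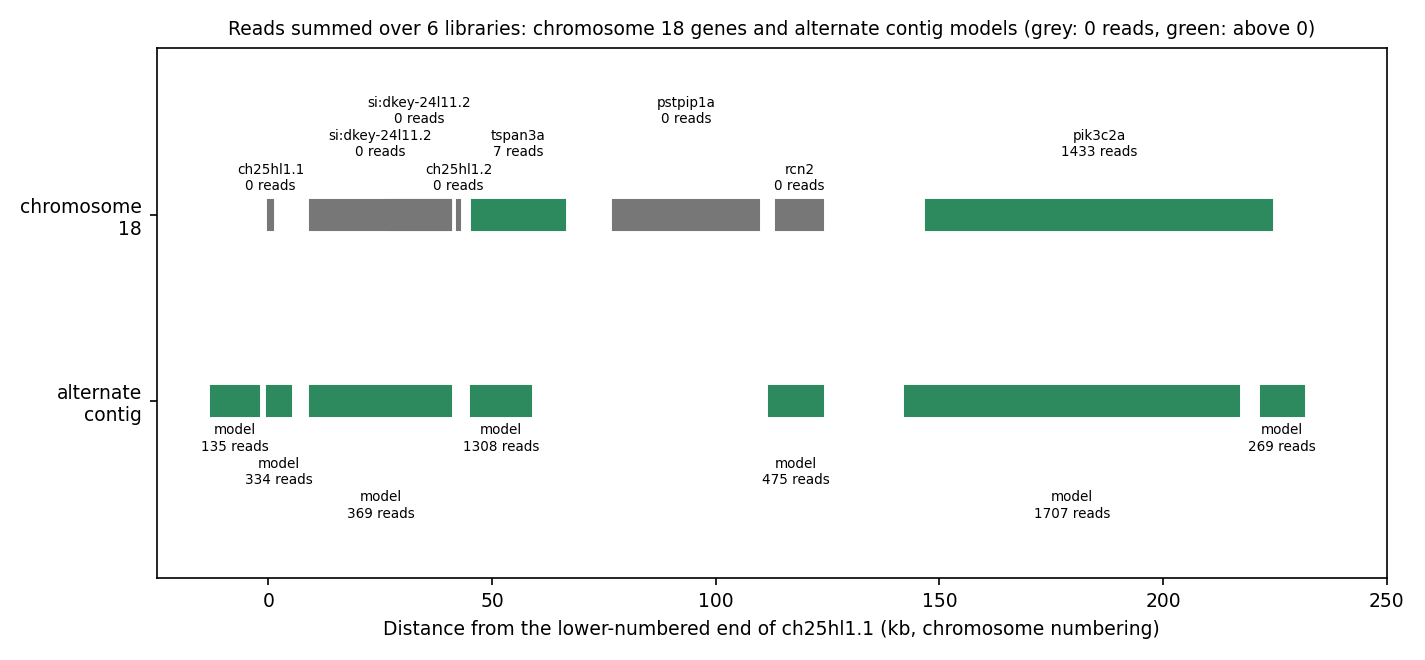
Genes of chromosome 18 (upper row) and models of the alternate contig (lower row) drawn to scale by distance from ch25hl1.1 in kb, with reads summed over the 6 libraries; grey boxes have 0 reads and green boxes have reads. Both ch25hl1 genes are grey, while the model below ch25hl1.1 holds 334 reads.

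Within a genotype the members can be ordered by FPKM, which is per length. In mutants ch25hl2 came first, at 2.68 to 3.01 FPKM, and lay apart from the longer ch25hl3 entry, at 0.444 to 0.846 FPKM, which overlapped ch25h, at 0.241 to 0.458 FPKM. In WT ch25h came first, at 1.403 to 2.30 FPKM, overlapped the longer ch25hl3 entry, at 0.832 to 1.51 FPKM, and lay apart from ch25hl2, at 0.659 to 0.922 FPKM, which itself overlapped that entry. The alternate contig model, taken as a copy of ch25hl1.1, would stand first in both genotypes, apart from ch25hl2 in mutants and overlapping ch25h in WT. The summed level of all 6 entries was 3.81 ± 0.364 FPKM in mutants and 3.94 ± 0.834 FPKM in WT (SD, n = 3 each). This sum includes the longer ch25hl3 entry, which has an Erlin-2 match and no hydroxylase domain. That entry averaged 0.621 FPKM in mutants and 1.14 FPKM in WT, so the sum is not a level of hydroxylase transcripts alone. Among these 6 entries, 3 did not overlap between genotypes, namely ch25hl2, ch25h and the shorter ch25hl3 entry, beside a background of 9.9% of the 31772 genes above 0 in at least 1 library. Among the 3 with enough reads to enter the fit, 2 did not overlap, beside 10.6% of the genes tested. The members were chosen on this contrast, so nothing follows from these shares.

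The table also gives features that the choice of members did not use. For ch25h, ch25hl1.1, ch25hl1.2 and ch25hl2 the gene length equals the span on the chromosome, so these 4 entries have no intron in this annotation. The shorter ch25hl3 entry spans 4341 bases with 804 bases of gene length, and the alternate contig model spans 5292 bases with 1297. The fatty acid hydroxylase domain was listed for every member entry but the longer ch25hl3 entry. No member lies on chromosome 2, which carries sirt6.

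The genes next to the members were read in the same way. The closest genes before ch25h are ifit9 and ifit10, of a family of interferon-induced proteins, 7415 and 14499 bases away, and both were near 0, with at most 0.0683 FPKM in mutant libraries and at most 0.198 FPKM in WT libraries. On the other side lies acta2, a smooth muscle actin gene, with 92.1, 115 and 87.3 FPKM in mutant libraries, against 123, 109 and 106 FPKM in WT libraries (limma adjusted p = 0.928). The neighbours of ch25hl2 with tested levels were s100z, a calcium-binding protein gene, crhbp, which encodes a binding protein of corticotropin-releasing hormone, and f2rl1.2, a protease-activated receptor gene, with log2 fold changes of -0.25, 0.12 and 0.12 (limma adjusted p = 0.946, 0.96 and 0.967). Of 18 neighbours of all members, 8 were tested, 0 passed limma, and 0 of these 8 had genotypes that did not overlap, beside 10.6% of all genes tested, a share at which 8 genes say little. Without mutant library 2 and WT library 1, 1 of the 8 neighbours passed, namely acta2, beside 18.6% of all genes tested, so nothing follows from it.

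The genes that handle the family's product were read next, from lists chosen with earlier results of these data known. In each of the 6 pathway lists 0 genes passed limma in either direction, beside the background of 0%, and the median log2 fold change over all genes tested was 0.00024. Genotypes did not overlap in 10.6% of all genes tested. In the lists this held for 7 of 37 oxysterol genes, 3 of 22 liver X receptor targets, 5 of 26 sterol genes, 2 of 7 superfamily genes, 3 of 18 interferon genes and 6 of 27 inflammation genes. The 2 superfamily genes were faxdc2 and bco1l, and bco1l is no member of that superfamily but was listed in error. Genes named below for their small p were picked for it, so their lack of overlap adds nothing. Among 37 tested genes of oxysterol enzymes, receptors and carriers, 14 had higher and 23 lower means in mutants, with a median log2 fold change of -0.05. The oxysterol hydroxylase gene cyp7b1 had 5.46, 3.44 and 6.29 FPKM in mutant libraries, against 6.91, 6.49 and 8.39 FPKM in WT libraries. Its libraries did not overlap, but it did not pass (log2 fold change -0.51, SE 0.22, limma adjusted p = 0.868). The receptor gene gpr183a had 0.519, 0.912 and 1.03 FPKM in mutant libraries, against 1.09, 0.90 and 1.95 FPKM in WT libraries, with overlap (limma adjusted p = 0.925). Its paralogue gpr183b was listed at 0 throughout, and hsd3b7, the dehydrogenase of the same route, was under 0.317 FPKM in each library and not tested. The bile acid synthesis gene cyp7a1 stood at 28.2 ± 3.57 FPKM in mutants and 37.9 ± 1.48 FPKM in WT (SD, n = 3 each). The steroid dehydrogenase gene hsd11b2 stood at 8.69 ± 0.145 and 6.67 ± 0.124 FPKM (SD, n = 3 each). Neither passed (limma adjusted p = 0.775 and 0.808).

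Of 22 tested targets of liver X receptors, which oxysterols activate, 9 had higher and 13 lower means in mutants (median log2 difference -0.04). The receptor gene nr1h3 had 7.64, 9.09 and 8.81 FPKM in mutant libraries, against 6.30, 12.3 and 10.97 FPKM in WT libraries. Cholesterol exporters of the ABC family overlapped between genotypes as well, with log2 fold changes of 0.19 for abca1a, 0.03 for abca1b and 0.14 for abcg1, and mylipa, a ligase that marks the LDL receptor for breakdown, had -0.13. Of the 3 list members whose genotypes did not overlap, pltp, a phospholipid transfer protein gene, was higher, at 10.2 ± 0.245 FPKM in mutants and 8.18 ± 1.01 FPKM in WT (SD, n = 3 each), and smpdl3b and arl4ca were lower. None of these passed limma, with adjusted p from 0.868 to 0.985.

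Of 26 tested genes of sterol synthesis and SREBP2 targets, 9 had higher and 17 lower means in mutants (median log2 difference -0.07). The synthase gene hmgcs1, which acts just before HMG-CoA reductase, had 26.1, 25.2 and 24.9 FPKM in mutant libraries, against 34.4, 33.1 and 32.0 FPKM in WT libraries. Squalene epoxidase, sqlea, had 5.28, 5.19 and 5.196 FPKM in mutant libraries, against 10.5, 6.99 and 7.40 FPKM in WT libraries, and the mevalonate decarboxylase gene mvda had 5.06, 6.03 and 5.37 FPKM against 8.32, 8.66 and 6.82 FPKM. These 3 genes have the smallest p of the list, and every mutant library lay below every WT library, as in 5.4% of all genes tested. None passed (limma adjusted p = 0.775 for each). The rate-limiting reductase gene hmgcra, the LDL receptor gene ldlra and the regulator gene srebf2 overlapped between genotypes, with log2 fold changes of -0.04, -0.04 and 0.18. The more abundant reductase copy hmgcrb overlapped as well, at 10.2 to 12.9 FPKM over all libraries (log2 fold change 0.12). The anchor gene insig1 was listed at 0 in all libraries. Its paralogue insig2 had 4.13 to 8.27 FPKM over all libraries, with overlap (log2 fold change 0.20).

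Of 7 tested genes listed as other members of the fatty acid hydroxylase superfamily, 0 had higher and 7 lower means in mutants (median log2 difference -0.21). Of these, bco1 and bco1l are carotenoid oxygenase genes listed here in error, since such enzymes lack that domain. All counts of this list and its median include them. The methylsterol oxidase gene msmo1 had 7.10, 7.26 and 4.95 FPKM in mutant libraries, against 7.02, 13.6 and 11.95 FPKM in WT libraries, where WT library 1 lay among the mutants. The gene faxdc2 had 63.3, 63.3 and 54.6 FPKM against 75.6, 71.0 and 68.6 FPKM, with no overlap, and agmo, an ether lipid monooxygenase gene, had 15.5, 21.7 and 17.1 FPKM against 19.8, 25.2 and 20.8 FPKM. The desaturase gene sc5d had a log2 fold change of -0.12. None of these passed (limma adjusted p from 0.838 to 0.952), and the median is a description of 7 genes, of which msmo1 and sc5d also stand in the sterol list.

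Because ch25h of mammals answers to interferon and inflammation, those genes were read too. The interferon list had 18 tested genes of 45 found, 6 higher and 12 lower, with a median log2 fold change of -0.16. The GTPase gene gbp1 had 1.06, 1.42 and 1.28 FPKM in mutant libraries, against 2.0, 2.18 and 2.30 FPKM in WT libraries, and gbp2 0.717, 0.883 and 1.15 FPKM against 1.69, 1.44 and 1.298 FPKM. The peptide-loading gene tapbp.1 ran the other way, with 1.71, 1.54 and 1.3 FPKM against 1.25, 0.844 and 0.274 FPKM. These 3 genes did not pass (limma adjusted p = 0.775, 0.868 and 0.868). Of 27 tested genes of inflammation and NF-kB signalling, 14 were higher and 13 lower, with a median of 0.04. The smallest p there belonged to the chemokine gene cxcl8a, lower in mutants (log2 fold change -1.27), irg1l, an immune-responsive gene, higher (0.77), and the cyclooxygenase gene ptgs2b, lower (-0.44), and none passed (limma adjusted p = 0.221, 0.412 and 0.775).

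**Figure D5:**
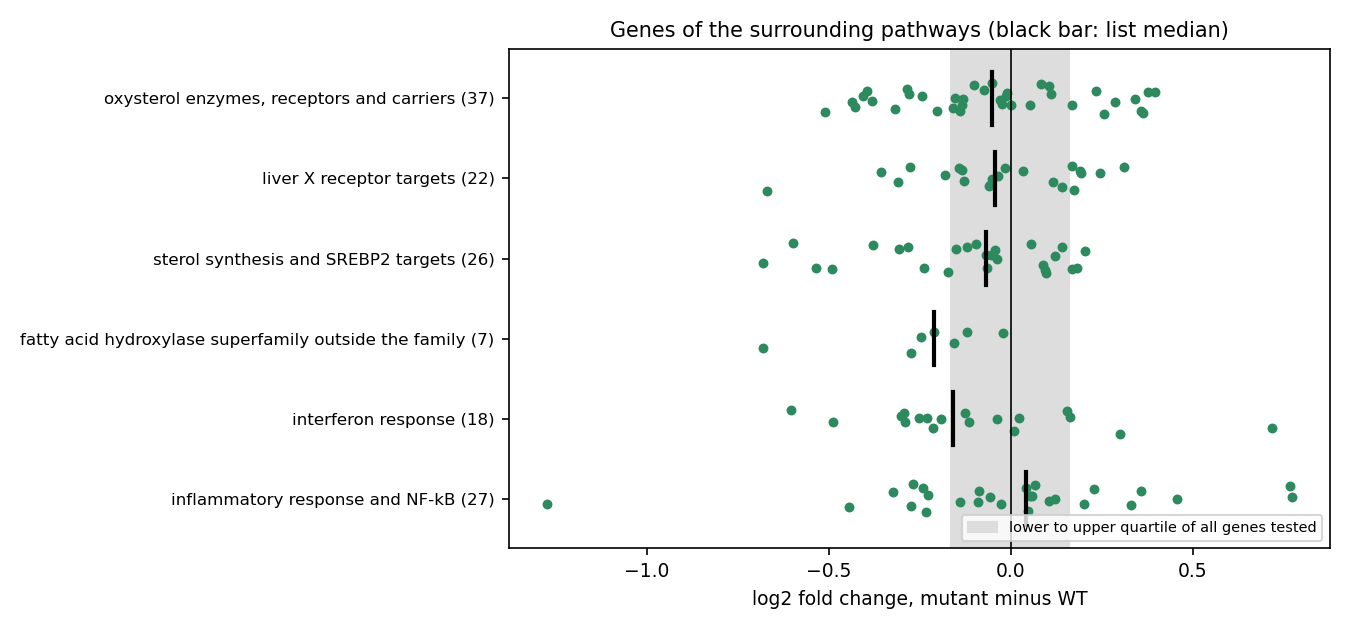
Log2 fold change, mutant minus WT (horizontal axis), of each tested gene (points) of the 6 pathway lists, with the number tested in brackets and the list median as a black bar; the grey band runs from the lower to the upper quartile of all genes tested. List medians lie between -0.21 and 0.04, and no point passed limma.

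Cell types that could carry the family's transcripts were followed by marker lists. In a bulk sample, fewer cells of a type and less RNA per cell cannot be told apart. Of 23 tested macrophage markers 3 were higher and 20 lower, with a median log2 fold change of -0.26, and their summed level was 564 to 836 FPKM in mutant libraries, against 728 to 1061 FPKM in WT libraries. The apolipoprotein gene apoc1, which is also in the liver X receptor list, made up 85.4% to 90.6% of that sum. Without apoc1 it was 82.2 to 86.0 FPKM in mutant libraries, against 92.5 to 99.9 FPKM in WT libraries. The means of the defining macrophage genes mpeg1.1 and mpeg1.2 differed in direction. On 4 to 20 reads per library, mpeg1.1 had 0.112 to 0.228 FPKM in mutant libraries, against 0.302 to 0.543 FPKM in WT libraries. Its paralogue mpeg1.2, on 165 to 274 reads, had 6.62 to 7.02 FPKM in mutant libraries, against 4.89 to 6.31 FPKM in WT libraries (limma adjusted p = 0.898). The smallest p in this list belonged to grn2, mrc1b and fcer1gl, all lower in mutants (limma adjusted p = 0.701, 0.834 and 0.838). Of 19 neutrophil markers 10 were higher and 9 lower, and the summed level was 548 to 698 FPKM in mutant libraries, against 532 to 683 FPKM in WT libraries, of which cpa5 made up 50.5% to 53.3%. Defining neutrophil genes were not all low: mpx, the myeloperoxidase gene, had 18.9, 20.3 and 19.5 FPKM in mutant libraries, against 11.2, 11.5 and 11.09 FPKM in WT libraries. With npsn and srgn it was higher in mutants without overlap, and none of these passed (limma adjusted p = 0.242, 0.183 and 0.406). The marker lyz had 0.249, 0.365 and 0.224 FPKM in mutant libraries, against 0.83, 0.96 and 0 FPKM in WT libraries. Its genotypes overlapped, on at most 8 reads per library. Of 19 tested retina markers 12 had higher and 7 lower means in mutants, with a median of 0.31. Their summed level was 2009 to 2414 FPKM in mutant libraries, against 1543 to 1832 FPKM in WT libraries, and without rho it overlapped, at 1231 to 1504 FPKM in mutant libraries and 1258 to 1281 FPKM in WT libraries. The rod genes saga, rom1b and grk1a had the smallest p there (limma adjusted p = 0.128, 0.406 and 0.412). Of 13 tested intestine markers 4 had higher and 9 lower means in mutants, with a median of -0.25, and the summed level overlapped, at 1553 to 1956 FPKM in mutant libraries and 1469 to 2403 FPKM in WT libraries. Notochord and cartilage markers had 13 of 15 higher and a median of 0.34. Genotypes did not overlap in 7 of 23 macrophage, 6 of 19 neutrophil, 10 of 19 retina and 6 of 13 intestine markers, beside 10.6% of all genes tested. The shares were lower elsewhere, with 1 of 20 skeletal muscle, 1 of 20 endothelium, 3 of 15 skin and 3 of 15 notochord and cartilage markers. They were 5 of 25 for erythroid, 3 of 14 for neural and 5 of 18 for liver markers. In all marker lists 0 genes passed limma, and the part of these cell types in the levels of ch25hl2 and ch25h was not tested. The other lists had medians of -0.09 for liver, -0.08 for erythroid, 0.02 for skeletal muscle, 0.01 for neural, 0.00568 for neutrophil, -0.01 for skin and -0.00494 for endothelium markers. The genes of smallest p in the remaining lists were hmbsb, hbbe2 and hbbe3 (erythroid), tnnt3b, pvalb2 and smyhc1 (muscle), krt8, cyt1 and ppl (skin), tbxta, col2a1a and col9a1b (notochord and cartilage), stab2, esama and she (endothelium), serpina1l, c3a.1 and cfb (liver), apoa4a, slc10a2 and slc15a1b (intestine), and snap25a, mbpa and tubb5 (neural).

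Genes were also ranked by how closely their log2(FPKM + 0.5) over the 6 libraries followed a member, among 14159 named genes of at least 1 FPKM on average. The profiles closest to ch25hl2 were those of unc45b, a chaperone gene of myosin (Pearson r = 0.997), the rod arrestin gene saga (0.991), SLC9B2 (0.99), slc35a4 (0.988) and the retinoic acid hydroxylase gene cyp26c1 (0.985). The most opposite were ftr14 (-0.994), cxcl8a (-0.993) and dpp4 (-0.991). For ch25h the closest were slc35f2 (0.995), the mucin gene muc13b (0.993), cdca4 (0.988), plgrkt (0.987) and hoxc13b (0.987), and the most opposite SYNDIG1 (-0.99), yars2 (-0.986) and dgkaa (-0.984). For the longer ch25hl3 entry the closest were sirt1 (0.996), ppp2r2ca (0.99) and umad1 (0.979), and the most opposite fzd10 (-0.996), mtmr6 (-0.982) and sf1 (-0.981). An r of at least 0.95 was reached by 51 genes (0.36%) with ch25hl2 and by 42 (0.297%) with ch25h. An r of -0.95 or lower was reached by 37 (0.261%) and 49 (0.346%). With the longer ch25hl3 entry each of these limits was reached by 25 genes (0.177%). Both ch25hl2 and ch25h were picked for their gap between genotypes, so genes with a gap of their own rank high or low by that choice. All the points share these libraries, and the values describe likeness in them only.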

How the data were processed

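RNA-seq libraries of larval tails, 3 per genotype, were analysed as one table of FPKM values that the authors deposited, with gene length, position and protein match per gene. The submitters' processing notes name the GRCz11 build and the tools HISAT2 2.0.5, featureCounts, DESeq2 and FastQC. No label records the annotation release, the strand setting or any filter, so reads shared with an overlapping or antisense gene cannot be assigned.

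Reads per gene were recovered from FPKM times gene length: each library has 1 step size, and 100% of values above 0 were whole multiples of it (tolerance 1e-06). Exact 95% Poisson intervals and floors of 3 reads cover counting error only, since reads without molecular identifiers are not independent molecules. Median-of-ratios factors of the FPKM values were 1 in every library.

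The test was limma 3.58.1 in R 4.3.3 with a variance trend on log2(FPKM + 0.5), for the 23855 genes that averaged 0.5 FPKM or more, two-sided, with Benjamini-Hochberg adjustment over all genes tested and a threshold of 0.05. A fold change is mutant minus WT on that scale, and the added 0.5 understates changes of low genes. Members, gene lists, design and alternatives were chosen with earlier results of these data known. Named genes were the members, their 2 nearest genes on each side, pathway genes fixed by role, and the paralogues hmgcrb and insig2. Others were the 3 genes of smallest p per list and the closest profiles. Symbols were matched in the table or through a table of gene identifiers, and lipa was found as lipf (log2 fold change -0.13, limma adjusted p = 0.933). Protein and promoter sequences were not used here.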

Additional observations from a re-analysis of the deposited data

How the results depend on the processing

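Counts of genes passing limma were 0 in 14 of 16 alternatives. Quantile normalization gave 2, and leaving out mutant library 2 and WT library 1 gave 4429, where the pathway lists had 33 genes passing of 135 tested, the marker lists 77 of 200 (38.5%, against 24.4% for the pathway lists) and the neighbours 1. That fit keeps only the close pairs of libraries, so genotype and pair cannot be told apart, and 18.6% of all genes passed in it.
A pseudocount of 0.1 gave log2 fold changes of -2.12 for ch25h and 1.70 for ch25hl2, and a difference between them of 3.81. A pseudocount of 1 gave -1.03, 1.09 and 2.12. Limma voom on recovered reads gave -2.32, 1.78 and 4.11, and -0.85 for the longer ch25hl3 entry. Without mutant library 2 and WT library 1 the values were -1.64 for ch25h, 1.38 for ch25hl2, 3.02 for the difference and -0.66 for the longer ch25hl3 entry. Leaving out each library in turn gave -1.54 to -1.25 for ch25h, 1.26 to 1.41 for ch25hl2, 2.64 to 2.94 for the difference, -0.68 to -0.38 for the longer ch25hl3 entry, and -0.36 to 0.20 for sirt6, with counts of 0 throughout. The value set by the floor of 3 reads for the shorter ch25hl3 entry ranged from 1.76 to 3.0-fold. It was 1.77-fold without mutant library 3 and 1.76-fold without mutant library 2 and WT library 1. Median-of-ratios rescaling gave the reported values again by construction. So did the other filters, the replicate block and the fit without variance trend for the fold changes of ch25h and ch25hl2. The replicate block left 0 genes passing and a log2 fold change of -1.43 for ch25h and 1.35 for ch25hl2. Correlations of deviations between genotypes were 0.0534, 0.0121 and 0.106 for libraries sharing numbers 1, 2 and 3. For libraries of different number they ran from -0.102 to 0.038. All were weak, so the replicate numbers gave no clear pairing. The longer ch25hl3 entry was under the filter of 1 FPKM, and the ch25hl1 genes gave no value. Leaving out single libraries moved the median log2 fold change between -0.11 and 0.03 for liver X receptor targets (0.03 without WT library 2), -0.05 and 0.07 for inflammation, -0.24 and -0.09 for interferon, -0.32 and -0.23 for macrophage, and 0.20 and 0.37 for retina genes. Depth limits the shorter ch25hl3 entry, which had 0 reads in mutants, and ch25h in mutants, with 15 reads in all. The ch25hl1 genes had 0 reads in all libraries. For ch25hl1.1 this is not a matter of depth alone, since the alternate contig model with its protein match held 334 reads.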

Other observations

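A listing at 0 beside a matching model on an alternate contig was not particular to ch25hl1.1. Over the whole table, 2065 protein-coding genes of the chromosomes had a model with the same protein match at the same position and strand on an alternate contig, and 14.7% of them were at 0 in all libraries. Among 22238 protein-coding genes with no such overlapping model, 7.48% were at 0. These shares count genes at 0 and do not show whether the models held reads. The protein match was the same in 69.7% of the 3321 overlapping pairs with a match on both sides. The sterol regulator gene insig1, listed at 0 in the 6 libraries, may have such a counterpart in a model with an insulin-induced gene 1 match on an alternate contig of chromosome 7, which was singled out after its values were seen. It had 3.44, 2.03 and 1.82 FPKM in mutant libraries, against 5.49, 3.17 and 3.0 FPKM in WT libraries, and the genotypes overlapped.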
